A study of Mus musculus with 20 samples.

Results

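The HoxC cluster is a row of 9 homeobox genes on mouse chromosome 15, with the noncoding transcript *Gm16258* between *Hoxc12* and *Hoxc11*. These 10 genes, of 37620 listed in the expression table, were followed in dorsal root ganglia (DRG), the sensory ganglia beside the spinal cord. RNA sequencing was done on whole DRG of 10 C57Bl6 embryos, 5 male (M1, M3, M5, M7 and M8) and 5 female (F3, F7, F8, F9 and F10), at E18.5, shortly before birth. Each embryo gave a lumbar library from L4-5 and a sacral library from L6-S1, so there were 20 libraries in 4 groups of 5. No transgene, knockout or treatment is named in the labels for any group. The study asked which transcripts differ between lumbar DRG and the sacral DRG that hold sensory neurons of the pelvic organs. The cluster was chosen by its sacral minus lumbar differences in log2 RPKM, which had been seen before in these same libraries. The members' differences between the levels are therefore a description. Where a member is said to be called between the levels, this gives its place in the fit over all genes and is no independent evidence. Sex and the relations among genes within a level were tested.

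Hox genes encode transcription factors that give cells their position along the head-to-tail axis. Within a cluster the genes are numbered by paralog group, and the order of the genes on the chromosome follows the order of their expression domains along the body: low numbers are active from anterior levels onward, high numbers from posterior levels onward. Where both are present, posterior Hox proteins tend to override anterior ones. In the spinal cord and limb region the HoxC genes of the middle groups mark levels anterior to the lumbar level, and *Hoxc10* marks the lumbar level. Hox proteins bind DNA together with cofactors of the TALE class (Pbx, Meis and Pknox).

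On the mm9 build the cluster spans chr15:102751534-102867274, a length of 115741 bases. The 9 coding genes lie on the plus strand and begin with *Hoxc13* (chr15:102751534-102759245), followed by *Hoxc12* (chr15:102767188-102769040), *Hoxc11* (chr15:102784858-102788139), *Hoxc10* (chr15:102797227-102802324) and *Hoxc9* (chr15:102806870-102815530). *Hoxc8* (chr15:102821053-102824698), *Hoxc6* (chr15:102828688-102842312), *Hoxc5* (chr15:102844246-102847860) and *Hoxc4* (chr15:102849367-102867274) come after them. *Gm16258* (chr15:102774493-102778851) is on the minus strand, 5452 bases from *Hoxc12* and 6006 bases from *Hoxc11*. RefSeq gives *Gm16258* as a synonym of *Hotair*, a long noncoding RNA known from the same place in the human HOXC cluster. No exon of a member overlaps an exon of another member.

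Values are given as log2 RPKM. RPKM divides a gene's reads by its exon length and by the size of the library, so that genes can be compared per length. The size used here was a scaled one and not the read total (for lumbar M5, 16387723 against 23810640 recovered reads). The reads behind each value were recovered from the steps of the values. Libraries held between 19403023 and 39257771 reads, and mitochondrial rRNA took between 18.1% and 61.4% of them. Between 21202 and 23768 genes had reads in a library, with the 2 highest numbers in lumbar F8 and sacral F7. Sensory neuron markers were present in every library, and the sum of the 7 markers (*Isl1*, *Pou4f1*, *Avil*, *Prph*, *Tubb3*, *Prrxl1* and *Scn10a*) was 287 to 761 RPKM in lumbar and 165 to 680.0 RPKM in sacral libraries.

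The sign of the mean level difference followed the order of the genes, with *Hoxc5* at only -0.11. The median of *Hoxc5* went the other way, from -0.51 log2 RPKM in lumbar to 0.04 in sacral ganglia. Each gene from *Hoxc4* to *Hoxc9* had a lower mean in sacral than in lumbar ganglia, and each gene from *Hoxc10* to *Hoxc13*, with *Gm16258*, had a higher one. The turn lay between *Hoxc9* and *Hoxc10*, whose annotated ends are 4545 bases apart. Of the 10 members, 8 had a mean log2 RPKM of at least that of 1 RPKM in at least 1 group and entered the fit. *Hoxc9* (highest group mean -0.04 log2 RPKM, in lumbar females) and *Hoxc13* (-0.13, in sacral females) fell just short. *Hoxc11*, *Hoxc12* and *Gm16258* reached that mean only in sacral groups, so they could enter only because they were high there.

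In the fit over all 14529 genes tested, 4 members (*Hoxc10*, *Hoxc11*, *Hoxc12* and *Gm16258*) were called higher and 2 (*Hoxc8* and *Hoxc6*) lower in sacral ganglia, where 2.7% of all genes were called higher and 4.03% lower (40.1% of calls were higher, and 51.6% with quantile normalization). The median difference over all genes tested was -0.05 on the log2 scale. The 10 lumbar and 10 sacral values did not overlap for 4 of the 8 members (*Hoxc8*, *Hoxc11*, *Hoxc12* and *Gm16258*), where this held for 0.138% of all genes. The same 4 members moved 1 way in 10 of 10 embryos, where 2.85% of all genes did. These counts rest on the contrast with which the members were chosen and, for *Hoxc11*, *Hoxc12* and *Gm16258*, on the filter, so nothing is read from them. Since whole ganglia were sequenced, fewer cells of a type and less RNA per cell cannot be told apart.

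**Figure D1:**
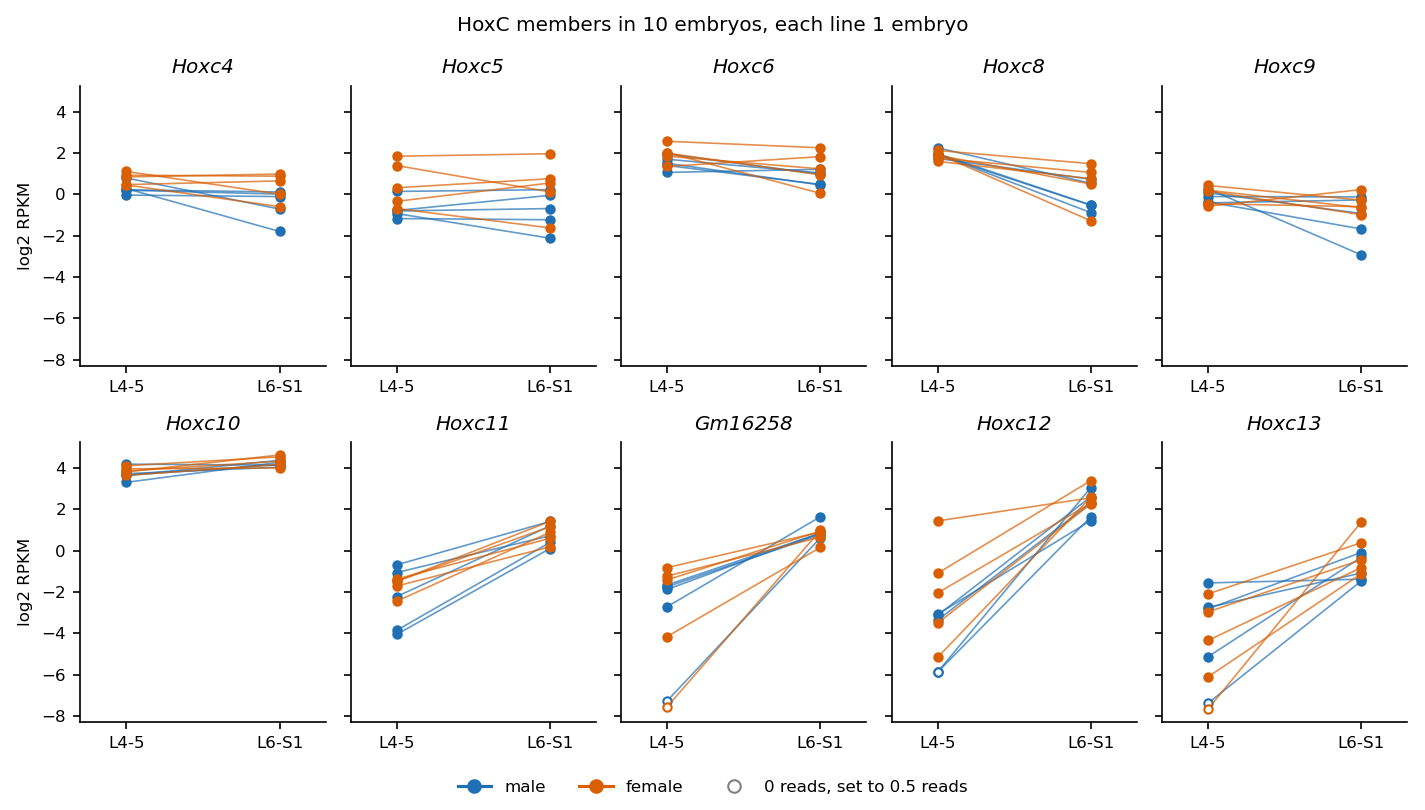
Level of each HoxC member in log2 RPKM (vertical axis) in lumbar (L4-5) and sacral (L6-S1) ganglia, with 1 line per embryo, coloured by sex, and open symbols for libraries with 0 reads. The lines of Hoxc8 go down in 10 of 10 embryos, those of Hoxc5 go both ways, and each of 10 lines goes up for Hoxc11, Gm16258, Hoxc12 and Hoxc13.

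*Hoxc12*, one of the most posterior genes of the cluster, was close to absent from most lumbar libraries. In lumbar males it had 0, 3, 2, 0 and 4 reads, in the order of the embryos given above, and in lumbar females 3, 68, 20, 1 and 7. The sacral libraries held 266, 168, 56, 88 and 177 reads in males and 191, 140, 284, 157 and 126 in females. Lumbar F7, with 68 reads, stood apart from the other lumbar libraries and came up to the lowest sacral library, M5 (1.44 against 1.45 log2 RPKM). The mean rose from -3.17 ± 2.25 (SD, n = 10) in lumbar to 2.41 ± 0.58 in sacral ganglia, a difference within embryos of 5.59 ± 2.20. Without embryo F7 the fitted difference was 6.03. For a library with 0 reads the value depends on the 0.5 reads put in its place, and a count of 0 allows up to 3 reads (counting error only). With 1 or 0.25 reads in their place the difference was 5.39 or 5.79.

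*Gm16258* had the next largest difference among the members that were tested. It had 0, 22, 14, 23 and 14 reads in lumbar males and 5, 28, 42, 0 and 43 in lumbar females. Sacral males had 129, 160, 96, 127 and 237 reads and sacral females 117, 98, 137, 135 and 125. The lowest sacral value, 0.16 log2 RPKM in F3, was above the highest lumbar value, -0.82 in F10. The sacral values were close together at 0.84 ± 0.37 (SD, n = 10), while the lumbar values, -3.04 ± 2.48, were spread by the 2 libraries with 0 reads. The difference within embryos was 3.88 ± 2.45, with the smallest at 1.72. The libraries were made from double stranded cDNA, and whether reads were counted by strand is not stated. No annotated exon inside the cluster overlaps *Gm16258*, but reads from unannotated plus-strand RNA at its place cannot be told apart from its own.

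*Hoxc11*, a gene of the lumbosacral to caudal domain, had 4, 13, 2, 36 and 33 reads in lumbar males and 24, 15, 30, 13 and 22 in lumbar females. In sacral males it had 83, 152, 43, 148 and 94 reads and in sacral females 210, 53, 119, 95 and 76. No library was at 0, and the 2 levels did not overlap. Its mean was -2.03 ± 1.13 (SD, n = 10) in lumbar and 0.81 ± 0.49 in sacral ganglia, 2.84 ± 0.92 higher within embryos, or 7.17-fold.

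*Hoxc13*, the gene at the posterior end, was under the level filter. It had 10, 25, 6, 2 and 0 reads in lumbar males and 4, 14, 0, 11 and 1 in lumbar females, against 72, 31, 23, 54 and 25 in sacral males and 54, 74, 168, 46 and 28 in sacral females. The values of the levels did not overlap, but the embryos differed widely, from 0.18 on the log2 scale in M3 (25 and 31 reads) to 9.05 in F8 (0 and 168 reads). The mean difference was 3.78 ± 2.51 (SD, n = 10), higher in sacral ganglia in 10 of 10 embryos. By summed reads, *Hoxc13* had 73 in the lumbar and 575 in the sacral libraries.

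*Hoxc10*, the lumbar identity gene of spinal motor neurons, was the most abundant member at both levels and changed least among those called. Its lumbar values were 3.31, 3.64, 3.65, 3.73 and 4.19 log2 RPKM in males and 3.81, 3.86, 3.96, 4.11 and 3.65 in females. Sacral values were 4.28, 4.37, 4.17, 4.04 and 4.14 in males and 4.63, 4.33, 4.002, 4.54 and 4.18 in females. The levels overlapped, and in M8 the sacral value was the lower one. The mean difference was 0.48 ± 0.32 (SD, n = 10), or 1.39-fold, higher in sacral ganglia in 9 of 10 embryos. It was carried by 393 to 1842 reads per library, so counting error is smaller here than for any other member.

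*Hoxc8*, a gene of the thoracic domain, fell most among the members. The 10 lumbar values were within a narrow band, at 1.96, 1.98, 1.74, 1.92 and 2.26 log2 RPKM in males and 1.97, 1.76, 1.89, 2.13 and 1.60 in females. The sacral values were -0.88, -0.51, 0.74, -0.52 and 0.54 in males and -1.27, 1.07, 0.51, 1.49 and 0.76 in females. The highest sacral value, in F9, was under the lowest lumbar one, in F10. The mean fell from 1.92 ± 0.19 (SD, n = 10) to 0.19 ± 0.92. The difference within embryos was -1.73 ± 0.96, or 3.31-fold, and it was lower in 10 of 10 embryos.

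The spread of *Hoxc8* was uneven between the levels, since the sacral libraries fell into separate sets of 4 (M1, M3, M7 and F3, from -1.27 to -0.51) and 6 (from 0.51 to 1.49). Mitochondrial rRNA took 18.1% to 28.8% of the reads in the 4 libraries and 34.9% to 49.9% in the other 6. The same sets did not overlap for *Hoxc4* (-1.79 to -0.10 against 0.01 to 0.99), *Hoxc5* (-2.12 to -0.68 against -0.04 to 1.97) and *Hoxc9* (-2.92 to -0.92 against -0.64 to 0.23), each lower in the 4 libraries. They overlapped for *Hoxc6* and for the 5 posterior members. For *Hoxc8*, whose sets lie farther apart than the values within them, no correlation over the 10 sacral libraries is given. Within the 6 libraries Pearson's r between *Hoxc8* and the mitochondrial rRNA share was 0.25 (exact permutation p = 0.62, two-sided) and Spearman's rho 0.54 (exact permutation p = 0.30), 1 of 14 relations computed there, with the smallest adjusted p at 0.088 for r and 0.29 for rho. With the mitochondrial rRNA share as a covariate the fitted level difference of *Hoxc8* was -1.74. Its part in the split of these members was not tested further.

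*Hoxc6* and *Hoxc4*, genes of the cervical to thoracic domains, were lower in sacral ganglia in 8 of 10 embryos each. *Hoxc6* had a mean of 1.74 ± 0.43 (SD, n = 10) log2 RPKM in lumbar and 1.05 ± 0.65 in sacral libraries. Its difference of -0.69 ± 0.69 ran from -1.97 to 0.48, and the levels overlapped. Its call was lost under 10 alternatives, among them the fit without the embryo as a replicate block and the fit without embryos F7 and F8, and was kept under 14. *Hoxc4* went from 0.53 ± 0.37 to -0.05 ± 0.83, a difference of -0.58 ± 0.79 that was not called.

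*Hoxc9*, the last gene before the turn, had between 10 and 136 reads per library and was under the level filter. Its mean was -0.07 ± 0.35 (SD, n = 10) log2 RPKM in lumbar and -0.82 ± 0.91 in sacral ganglia, lower in 8 of 10 embryos by -0.74 ± 1.09 on average. M1 was lowest by far, with 84 lumbar and 10 sacral reads.

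*Hoxc5* showed no common direction. It was higher in sacral ganglia in 6 embryos and lower in 4, with a mean difference of -0.11 ± 0.77 (SD, n = 10). The embryos differed more than the levels: F7 had 256 lumbar and 264 sacral reads and F8 had 319 and 84, while the other embryos had 21 to 123. On exon bases, 449 bases of *Hoxc5* are shared with the processed transcript *Gm20398* on the same strand, 15.4% of *Hoxc5*, so that reads there cannot be assigned to 1 of them.

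**Figure D2:**
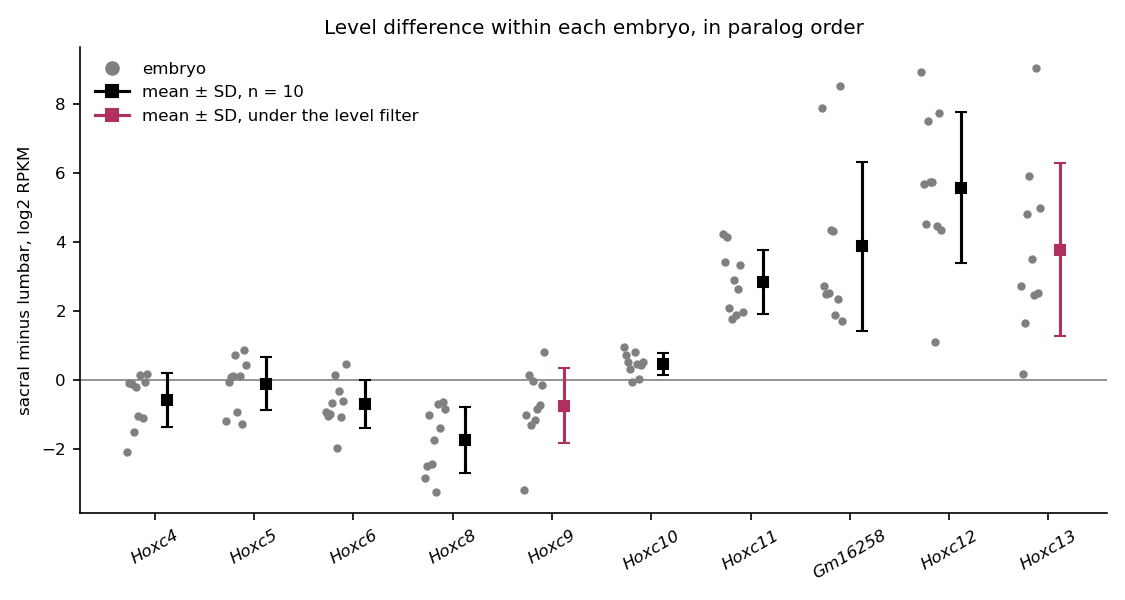
Sacral minus lumbar difference in log2 RPKM (vertical axis) for each member in paralog order, with 1 grey point per embryo and the mean ± SD over 10 embryos; the members under the level filter, Hoxc9 and Hoxc13, are in red. The means lie below 0 from Hoxc4 to Hoxc9 and above 0 from Hoxc10 (0.48) to Hoxc12 (5.59), and the spread between embryos is widest for Gm16258, Hoxc12 and Hoxc13.

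The order of the genes by level also differed between the ganglia. In lumbar ganglia *Hoxc10* was highest, followed by *Hoxc8* and *Hoxc6*, which could not be ordered (*Hoxc8* was above *Hoxc6* in 6 of 10 libraries). *Hoxc4* came next, above *Hoxc9* in 9 of 10, while *Hoxc9* and *Hoxc5* traded places (5 of 10). The 4 posterior members were last, and each of *Hoxc11*, *Gm16258* and *Hoxc12* was above the one that followed it in 5 of 10 libraries, so that no order among them is seen.

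In sacral ganglia *Hoxc10* was again highest in 10 of 10 libraries, and *Hoxc12* was in the next place, above *Hoxc6* in 10 of 10. *Hoxc6*, *Gm16258* and *Hoxc11* followed without a clear order, each above the next in 5 or 6 of 10 libraries. *Hoxc8* came after them by its mean, below *Hoxc11* in 6 of 10 libraries, and *Hoxc9* had the lowest mean, below *Hoxc13* in 6 of 10, so these places are not clear either.

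Added up as RPKM, the 9 coding genes reached 25.8 ± 4.38 (SD, n = 10) in lumbar and 34.4 ± 4.74 in sacral libraries, and the sum was higher in sacral ganglia in 10 of 10 embryos. *Hoxc10* made up a similar share at both levels, 54.6% ± 5.59 in lumbar and 56.9% ± 7.90 in sacral libraries. The share of *Hoxc4* to *Hoxc9* was 42.6% ± 4.29 in lumbar and 18.7% ± 8.03 in sacral libraries, and that of *Hoxc11* to *Hoxc13* was 2.86% ± 2.49 and 24.3% ± 7.29. The first share was lower and the second higher in sacral ganglia in 10 of 10 embryos.

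Embryos were unlike in how far the shares moved. In M1 the share of *Hoxc4* to *Hoxc9* went from 48.3% to 7.96%, while in F10 it went from 40.3% to 27.98%. F8 had the highest sacral share of *Hoxc11* to *Hoxc13*, 40.7%, and M5 the lowest, 14.8%. Among lumbar libraries F7 had 9.67%, and the others between 1.08% and 2.91%.

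**Figure D3:**
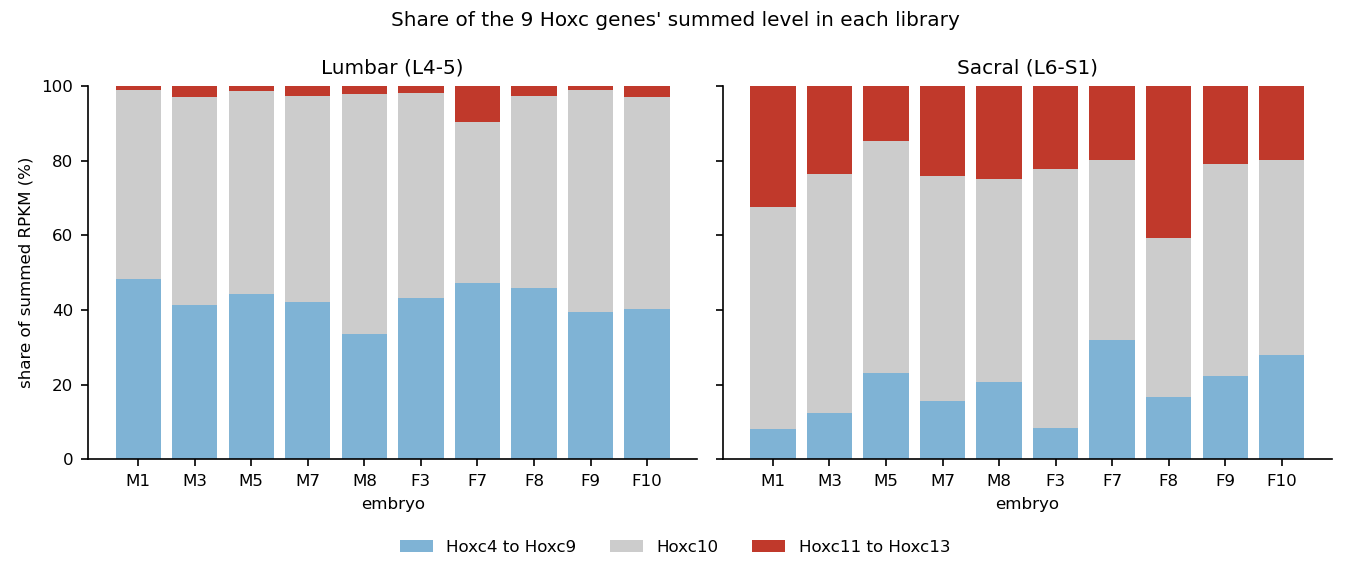
Share of the summed RPKM of the 9 Hoxc genes (vertical axis, %) taken by Hoxc4 to Hoxc9, Hoxc10 and Hoxc11 to Hoxc13 in each embryo's lumbar and sacral library. Hoxc10 fills about the same part of the bars at both levels (means of 54.6% and 56.9%), while the red part is 1.08% to 9.67% in lumbar and 14.8% to 40.7% in sacral libraries.

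Inside the cluster lie other identifiers that are not members. *Gm20398* (chr15:102797874-102846107, plus strand) has exon bases only within those of *Hoxc10* and *Hoxc5*, 166 and 449 bases, and its difference of 0.22 ± 0.57 (SD, n = 10) was not called. The microRNA genes *Mir196a-2* and *Mir615* are each listed under 2 identifiers at the same place with identical reads in every library, at most 2 reads for *Mir196a-2* and 1 for *Mir615*. Within 250 kb on either side 10 more genes are listed, and 5 of them were tested (*Calcoco1*, *Smug1*, *Cbx5*, *Hnrnpa1* and *Copz1*). Of these 5, 0 were called between the levels by limma. An unadjusted p under 0.05 was reached by 3, where 24.1% of all genes reached it. Their differences ran from -0.30 ± 0.53 for *Smug1* to 0.26 ± 0.24 for *Calcoco1*.

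*Mir196a-2* (chr15:102803772-102803881 on mm9) begins 1447 bases after the end of *Hoxc10*, between *Hoxc10* and *Hoxc9*. Its mature product miR-196a-5p is known to act on Hox messages of the middle paralog groups. The libraries were not made to hold small RNAs, so the level of the mature microRNA was not measured. Its part in the level differences of the members was not tested. Its sequence and the matches to its seed (bases 2 to 8, in capitals) in the 3′UTR of *Hoxc8*, the member that fell most, are shown because *Hoxc8* was the only one of the 9 coding members with such a match, and it held 3. The sequence of the microRNA is from RefSeq (GRCm38.p6, chr15:102973365-102973386), and UTRs are those of GENCODE M1, the longest for each gene. Letters in capitals in the sites are the seed match ACTACCT, searched on the message strand. The base given for each *Hoxc8* site is the first base of its seed match, not of the printed stretch.
mmu-miR-196a-5p: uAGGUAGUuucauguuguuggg
Hoxc8 site at base 135 of the 3′UTR: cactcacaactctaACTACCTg
Hoxc8 site at base 892: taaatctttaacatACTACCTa
Hoxc8 site at base 1030: cagcgtattttatcACTACCTa

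Of 19915 genes with an annotated 3′UTR, 1140 (5.72%) held the seed match. *Hoxa7* held 4, and *Hoxb8* and *Hoxd8* held none. The window of *Hoxb8* most complementary to the whole microRNA, which matched it at 21 of 22 bases (complementary bases in capitals), is shown beside them because the seed match alone misses it. A match of letters is a description and says nothing of binding.
Hoxb8, bases 418 to 439 of the 3′UTR: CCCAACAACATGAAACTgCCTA

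In the other 3 Hox clusters, the genes called lower were of groups 7 to 9 and those called higher of groups 10 and 11. The HoxC cluster has no gene of group 7. Of 31 identifiers of HoxA, HoxB and HoxD genes, 20 were tested, 3 were called higher and 4 lower in sacral ganglia. Over all genes tested, 2.7% were called higher and 4.03% lower. The lists were chosen with earlier results of these data known, so nothing is read from these counts. Those higher were *Hoxa11* at 1.53 ± 0.59 (SD, n = 10), *Hoxd10* at 1.77 ± 0.51 and *Hoxd11* at 2.19 ± 0.51, each in 10 of 10 embryos. Over all genes, 2.85% moved 1 way in 10 of 10 embryos. *Hoxa11* had a mean of -1.54 ± 0.65 (SD) log2 RPKM in lumbar and -0.01 ± 0.80 in sacral libraries. It could therefore enter the fit only because it was high in sacral ganglia. Those lower were *Hoxa7* at -0.92 ± 0.51, *Hoxb7* at -0.66 ± 0.51, *Hoxb8* at -1.30 ± 0.997 and *Hoxb9* at -1.13 ± 0.46.

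Paralogs of 1 group were not alike. In group 8, *Hoxc8* was at -1.73 ± 0.96 and *Hoxb8* at -1.30 ± 0.997, but *Hoxd8* was at -0.0041 ± 0.28 and was not called. In group 9, *Hoxb9* was called lower, while *Hoxa9* at -0.19 ± 0.29 and *Hoxd9* at 0.08 ± 0.35 were not called. In group 10, *Hoxd10* differed by 1.77 ± 0.51, *Hoxc10* by 0.48 ± 0.32 and *Hoxa10* by 0.10 ± 0.43, the last not called. In group 11 the differences were 1.53 for *Hoxa11*, 2.19 for *Hoxd11* and 2.84 for *Hoxc11*. In the anterior groups, *Hoxa6* was at 0.30 ± 0.75 where *Hoxc6* was at -0.69 ± 0.69, and *Hoxb5* at 0.45 ± 0.54, higher in 9 of 10 embryos, where *Hoxc5* was at -0.11 ± 0.77, and neither *Hoxa6* nor *Hoxb5* was called. These differences between paralogs were not tested against each other.

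At groups 12 and 13 the clusters could not be compared on 1 footing. *Hoxd12*, *Hoxd13*, *Hoxa13* and *Hoxb13* were under the level filter, at mean levels of -3.04, -4.47, -6.03 and -6.46 log2 RPKM in sacral libraries, where *Hoxc12* was at 2.41 and *Hoxc13* at -0.50. *Hoxd12* was 3.18 ± 1.94 higher in sacral ganglia, in 10 of 10 embryos, from 13 lumbar and 134 sacral reads in sum. *Hoxd13* was 2.71 ± 2.32 higher, in 8 of 10 embryos, from 0 and 68 reads. Each lumbar value of *Hoxd13* is therefore the 0.5 reads put in place of 0. Of the 8 TALE cofactors examined, 7 were tested (*Pbx2*, *Pbx3*, *Meis1* to *Meis3*, *Pknox1* and *Pknox2*), with a median difference of 0.0050. By limma 0 of the 7 were called, and 3 had an unadjusted p under 0.05, where 24.1% of all genes did. *Meis1* was lower in sacral ganglia in 10 of 10 embryos (-0.33 ± 0.20, SD) and *Pknox1* higher in 10 of 10 (0.24 ± 0.15), where 2.85% of all genes moved 1 way in each embryo.

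**Figure D4:**
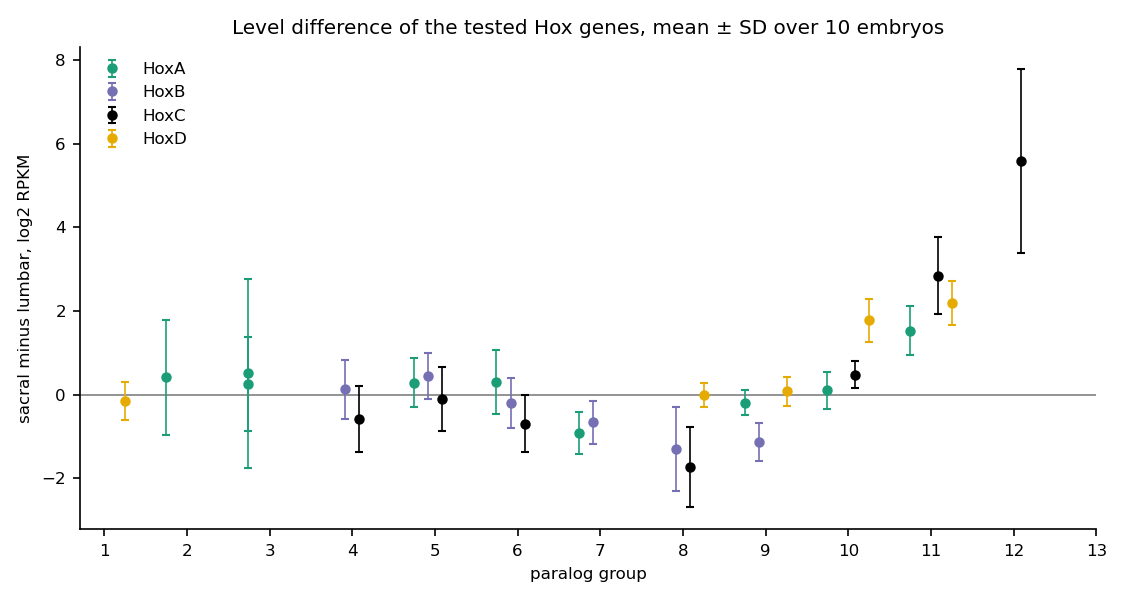
Sacral minus lumbar difference in log2 RPKM (vertical axis) against paralog group for the Hox genes that were tested in the 4 clusters, with the mean ± SD over 10 embryos. The means lie on both sides of 0 up to group 9, from -1.73 (Hoxc8) to 0.51 (an identifier of Hoxa3), and above 0 at groups 10 to 12, from 0.10 (Hoxa10) to 5.59 (Hoxc12).

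Sex was compared within each level with limma on all 14529 genes. The residual variance of a gene was pooled over the 4 groups, so a sex difference has the same SE at both levels. For *Gm16258* it was 1.18, while the SDs of females and males were 2.85 and 2.39 in lumbar and 0.34 and 0.40 in sacral ganglia. Such an SE is wide for the level with less spread and narrow for the other. The lack of a call for such a member in sacral ganglia therefore shows little. In lumbar ganglia 0 of the 8 members were called between females and males, where 0.33% of all genes were, and in sacral ganglia 0 of 8, where 1.01% were. The level by sex interaction called 0 members and 0% of all genes. At an unadjusted p under 0.05, 2 of the 8 members passed in lumbar ganglia (*Hoxc12* and *Hoxc5*), where 8.28% of all genes did, 1 in sacral ganglia (*Hoxc4*), where 15.5% did, and 0 in the interaction, where 3.23% did.

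*Hoxc12* in lumbar ganglia had 9 reads over the 5 male and 99 over the 5 female libraries, 68 of which were in F7. The means were -4.27 ± 1.48 (SD, n = 5) in males and -2.08 ± 2.50 in females, 2.19 ± 0.93 (SE) higher in females, with an adjusted p of 0.53 (limma, Benjamini-Hochberg) that ranged from 0.20 to 0.87 over 23 alternatives. The sexes overlapped, with 3 females above all males.

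*Hoxc4* in sacral ganglia was at -1.79, -0.10, 0.12, -0.71 and 0.02 log2 RPKM in males and -0.59, 0.99, 0.01, 0.88 and 0.66 in females. The female mean was 0.88 ± 0.37 (SE) higher, with an adjusted p of 0.27 (limma, from 0.12 to 0.56 over 22 alternatives), and the sexes overlapped. *Hoxc5* was 1.21 ± 0.56 (SE) higher in females in lumbar and 1.13 ± 0.56 higher in sacral ganglia, with adjusted p-values of 0.58 and 0.34 (limma), and F7 and F8 were the highest lumbar values. *Hoxc8* fell by 2.10 ± 0.73 (SD, n = 5) from lumbar to sacral ganglia in males and by 1.36 ± 1.09 in females, and the difference of the differences was 0.74 ± 0.47 (SE), with an adjusted p of 0.995 in limma. With 5 embryos of each sex these values do not show that the sexes are alike. The sacral libraries of lower mitochondrial rRNA share were M1, M3, M7 and F3, so the sexes were not balanced over the sets of 4 and 6. *Hoxc4*, *Hoxc5* and *Hoxc8* separated these sets without overlap. The part of the sets in their sex differences in sacral ganglia was not tested.

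Within a level, genes next to each other on the chromosome were compared over the 10 embryos, in 16 relations that were added after the values had been seen. The genes of a pair share their libraries and their scaling. *Hoxc6* and *Hoxc5* went together in sacral ganglia, with Pearson's r at 0.92 (permutation p = 0.00026, adjusted p = 0.0042) and Spearman's rho at 0.87 (permutation p = 0.0021, adjusted p = 0.017). *Hoxc5* and *Hoxc4* did so as well, with r at 0.90 (permutation p = 0.00074, adjusted p = 0.0059) and rho at 0.94 (permutation p = 0.00015, adjusted p = 0.0024).

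Both coefficients run over the sets of 4 and 6 sacral libraries with a lower and a higher mitochondrial rRNA share, which *Hoxc5* and *Hoxc4* separate without overlap. Within the 6 libraries r was 0.91 for *Hoxc6* and *Hoxc5* (exact permutation p = 0.013, adjusted p = 0.088) and 0.83 for *Hoxc5* and *Hoxc4* (exact permutation p = 0.011, adjusted p = 0.088), so neither was called there, and 4 libraries are too few for a value of their own. Within the 6, Spearman's rho was 0.83 (exact permutation p = 0.058) and 0.89 (exact permutation p = 0.033), with an adjusted p of 0.29 for each. The pooled r was 0.84 and 0.82 when the 2 embryos farthest from the median of the first gene were left out, which keeps libraries of both sets, and 0.92 and 0.86 when each sex was centred on its own mean. In lumbar ganglia the same pairs had r of 0.68 and 0.63, with adjusted permutation p-values of 0.15 and 0.18, which fell to 0.38 and 0.26 without the 2 farthest embryos. Whether the relations differ between the levels was not tested. Of the 16 relations, 0 of 9 among lumbar and these 2 of 7 among sacral libraries were called, by either coefficient.

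No pair of posterior neighbours was called. In sacral ganglia r was 0.58 for *Hoxc13* and *Hoxc12* (adjusted permutation p = 0.21), 0.13 for *Hoxc12* and *Gm16258* (adjusted permutation p = 0.82) and -0.17 for *Gm16258* and *Hoxc11* (adjusted permutation p = 0.82). The first of these rested on F7 and F8, without which it was 0.18. Among lumbar libraries the largest of the 3 was 0.63, for *Hoxc12* and *Gm16258* (adjusted permutation p = 0.18), with rho at 0.76 (permutation p = 0.016, adjusted p = 0.085). It rose to 0.91 without M7 and F7 and was 0.73 with each sex centred on its own mean (adjusted permutation p = 0.069). Differences between these coefficients and those of the anterior pairs were not tested.

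**Figure D5:**
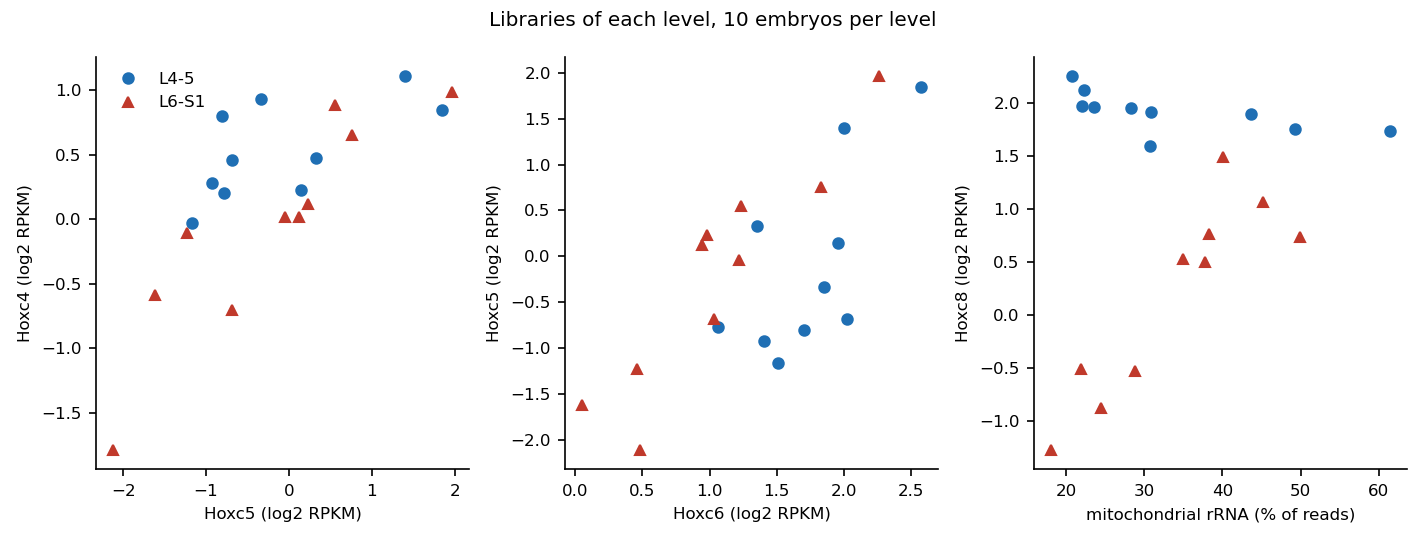
Values of each library, lumbar (L4-5) as blue circles and sacral (L6-S1) as red triangles: Hoxc4 against Hoxc5, Hoxc5 against Hoxc6 (all in log2 RPKM), and Hoxc8 (log2 RPKM) against the share of reads from mitochondrial rRNA (%). The sacral libraries lie along a line in the first 2 panels (r of 0.90 and 0.92 over the 10, 0.83 and 0.91 within the 6 of higher mitochondrial rRNA share), and in the third they fall into sets of 4 and 6 while the lumbar values stay between 1.60 and 2.26.

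HoxC genes were also set beside their HoxD paralogs over the embryos of a level, in 6 relations, to see whether embryos with more of 1 had more of the other. At an adjusted p of 0.05, 0 of the 6 were called, and 1 had an unadjusted p under 0.05 by r. The strongest was *Hoxc9* with *Hoxd9* in sacral ganglia, at r = 0.72 (permutation p = 0.018, adjusted p = 0.11) and rho = 0.39 (permutation p = 0.26, adjusted p = 0.52), and without M1 and M7 r was -0.18, so it rested on those embryos. *Hoxc11* with *Hoxd11* had r = 0.54 (permutation p = 0.096) and rho = 0.27 (permutation p = 0.45) in lumbar ganglia, with adjusted p-values of 0.29 and 0.59, and r was 0.38 without M1 and M5. *Hoxc10* with *Hoxd10* had r of -0.05 in lumbar and 0.26 in sacral ganglia (adjusted permutation p = 0.89 and 0.56).

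Over all 20 libraries, the tested genes outside the cluster most like 3 of the members were taken by Pearson's r, as a description. For *Hoxc11* they were *Cartpt*, a neuropeptide precursor, with r of 0.91, *Gm20440* with 0.91 and *Hoxd11* with 0.90. For *Hoxc8* they were *Hoxb9* with 0.84 and 2 identifiers of *Gm12166* with 0.80 and 0.79. For *Hoxc10* they were *Grin2d*, an NMDA receptor subunit, with 0.80, *Glul*, the glutamine synthetase of glia, with 0.79 and *Hoxd11* with 0.77. The 20 points fall into lumbar and sacral sets, so these values carry the level difference as well.

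Markers of other cells of the dissected tissue also differed between the levels for some lists. Over all genes tested, limma called 2.7% higher and 4.03% lower in sacral ganglia, and 24.1% had an unadjusted p under 0.05. Of 9 fibroblast and meningeal markers 8 were tested, 5 were called higher and 0 lower in sacral ganglia, and their sum ran from 195 to 444.7 RPKM in lumbar and from 271 to 602 in sacral libraries, higher in 9 of 10 embryos (*Twist2* was at 0 in a library). Of the 8 Schwann cell and satellite glia markers 4 were called lower and 0 higher, with sums of 235 to 342 and 162 to 279.6 RPKM. Of the 7 sensory neuron markers 0 were called (limma, 2 at an unadjusted p under 0.05), and the sum was higher in sacral ganglia in 2 of 10 embryos.

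Cartilage markers (3 of 6 tested, 1 called higher) summed to 4.71 to 15.9 RPKM in lumbar and 6.15 to 28.7 in sacral libraries, with *Matn1* at 0 in 3 libraries. Skeletal muscle markers (4 of 6 tested, 0 called and 0 at an unadjusted p under 0.05) summed to 17.1 to 244 and 17.1 to 162 RPKM. Spinal cord markers (1 of 6 tested, 1 called higher) summed to 0.98 to 3.76 and 1.44 to 4.82 RPKM, with *Mnx1* at 0 in 19 and *Lbx1* in 16 libraries. Sympathetic and parasympathetic markers (1 of 3 tested, 0 called and 0 at an unadjusted p under 0.05) summed to 2.01 to 7.13 and 2.11 to 10.2 RPKM, with *Dbh* at 0 in 2 libraries. Their part in the differences of the HoxC genes was not tested.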

How the data were processed

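The 20 libraries were grouped by the level, sex and embryo code in their labels. The authors amplified total RNA, aligned reads to mm9 with Subread, kept unique reads, counted them per Ensembl gene with featureCounts and deposited log2 RPKM values after TMM scaling (edgeR) and voom (limma). Whether strand was used is not given in the sources used here. The median was 0.930302 in all libraries, so the deposited values stand on a common median. Reads were recovered from the steps of the deposited log2 values with GENCODE M1 exon lengths, and for 28324 of 29049 genes with a value all were within 0.05 of a whole read. The other genes have no recovered reads. A blank was taken as 0 reads and set to 0.5 reads. Recovered reads were 19403023 to 39257771 per library, and intervals and limits cover counting error only.

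Values were tested with limma 3.58.1 (R 4.3.3, statmod 1.5.0): a mean per group, embryo as a block by duplicateCorrelation (correlation 0.34), eBayes with trend, a mean log2 RPKM of at least that of 1 RPKM in 1 group, and Benjamini-Hochberg adjustment at 0.05 over 14529 genes. The blocks pair the 2 libraries of an embryo, as the labels give them, and their deviations correlated by over 0.1 in 6 of 10 embryos. Correlations had two-sided permutation p-values from 100000 resamples, or exact ones for 6 libraries (Python 3, scipy). P-values take the embryos as replicates. Those of limma rest on the residual spread of each gene, pooled over the 4 groups, with 1 embryo correlation (0.34) used for all genes. The members, lists and tests were chosen with earlier results of these data known. The genes named were all 10 members, tested HoxA, HoxB and HoxD genes of groups 8 to 13 and those called, genes inside the cluster and within 250 kb of it, cofactors and marker lists by counts, and 3 most similar genes for *Hoxc8*, *Hoxc10* and *Hoxc11*. Some listed genes are not reported here. Tests were checked on simulated data. Alternatives covered the block, filter, blanks, pseudocount, scaling, weights, mitochondrial rRNA share and embryos left out.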

Additional observations from a re-analysis of the deposited data

Results flagged for a closer look

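In 40 groups of 5 values, 10 members in 4 groups, the highest or lowest value was set against the others, and 2 stood apart by a gap of more than 0.71 of the group's range. Chance alone flags about 1 group in 20. Both were *Gm16258*. In lumbar males the lowest value was that of M1, which had 0 reads and stands at -7.27 log2 RPKM through the 0.5 reads put in its place, a gap of 0.81 of the range. In sacral males the highest value was that of M8, 1.64 log2 RPKM from 237 reads, a gap of 0.77 of the range.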

How the results depend on the processing

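The level difference kept its sign for 9 of the 10 members under each alternative that gave them a value. For *Hoxc9* and *Hoxc13*, under the level filter, these were only the fit without the filter and 2 fits each with 1 embryo left out. *Hoxc5* turned, to 0.029 with sample weights and to between -0.24 and 0.033 with 1 embryo left out (0.033 without M1, 0.032 without F8). Between 4 (minimum of 2 RPKM, where fewer members were tested) and 7 members (without F10) were called. The call of *Hoxc6* ended in 10 alternatives. Without the replicate block it ended and 5 members were called, and with the embryo as a fixed replicate block, which cannot be fitted for sex, 5 were called too. With a pseudocount of 1 RPKM, which understates low genes, differences shrank to 2.34 for *Hoxc12*, 1.19 for *Gm16258*, 1.11 for *Hoxc11* and -1.10 for *Hoxc8*. Members called between the sexes or by the interaction stayed at 0 in each alternative run.

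Counts over all genes moved further, and the cause was not tested. Between the levels 978 genes were called, 154 without the replicate block, 507 with no filter on low values, 2998 with sample weights and 406 (without F10) to 1608 (without F8) with 1 embryo left out. Between the sexes in lumbar ganglia 48 were called, 91 with quantile normalization, 77 centred on genes with a value in every library, 197 with sample weights, 228 with the mitochondrial rRNA share as a covariate, 18 without F7 and F8 (chosen after seeing the data) and 14 to 81 with 1 embryo left out. In sacral ganglia 147 were called, 94 with no filter, 346 with quantile normalization, 275 centred, 751 with sample weights, 702 with the mitochondrial share, 60 without F7 and F8 and 55 to 444 with 1 embryo left out. The interaction gave 1 call without F7 and F8 and 0 otherwise. The r of *Hoxc9* with *Hoxd9* in sacral ganglia ran from 0.42 to 0.87 with 1 embryo left out, and passed the threshold without M8. The relations of *Hoxc6* with *Hoxc5* and *Hoxc5* with *Hoxc4* in sacral ganglia were not called within the 6 libraries of higher mitochondrial rRNA share (r of 0.91 and 0.83), a setting with fewer samples, chosen after seeing the data. Members with under 50 reads in most lumbar libraries are limited by depth.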
